A study of Rattus norvegicus with 64 samples.

Results

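By group medians, a set of 89 rat transcripts, out of 28420 measured, was higher in acetaminophen-treated than in vehicle livers at 10 h. By the same medians its members lay near the vehicle level in liver at 5 h, which group means and fitted changes need not share. The members were chosen on the ratio of the acetaminophen to the vehicle group median, each in CPM (estimated counts scaled to a library total of 1000000) with 0.5 added. The liver ratio at 10 h had to be at least 1.75, the liver ratio at 5 h between 0.8 and 1.25, and the kidney ratio at 5 h below 1.5. The ratio of vehicle livers at 10 h over those at 5 h had to lie between 0.57 and 1.75. The median in acetaminophen livers at 10 h had to reach 1 CPM, and at least 7 of those 8 libraries had to exceed the vehicle median. These values chose the members, so everything below on the liver and on the kidney at 5 h describes them and is not a test of them.

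The libraries came from 32 Sprague Dawley rats that received either a single dose of acetaminophen at 2 g/kg or the vehicle, 50% polyethylene glycol at 6 ml/kg. Liver and kidney were collected at 5 h or 10 h, which gave 64 libraries in 8 groups of 8: acetaminophen and vehicle, in each tissue, at each time. With 32 rats for 64 libraries, the liver and kidney groups share rats and are not independent animals. The labels give no sex, age or batch, and they do not tie a liver to a kidney of the same rat. A liver library held 21467448 to 29496773 estimated counts and a kidney library 18039111 to 26148119.

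Acetaminophen is a pain reliever whose overdose damages the liver. Cytochrome P450 enzymes of hepatocytes turn part of the dose into a reactive quinone imine, which glutathione binds; once glutathione runs low, the metabolite attaches to proteins, mitochondria fail and hepatocytes around the central vein die. Stress-response transcription and, later, inflammation and repair follow, and rats are known to be more resistant to this injury than mice. The kidney also forms the reactive metabolite and can be injured.

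The files pair none of the Ensembl transcript identifiers with a gene symbol, so no role can be given for a member. For the same reason marker genes of liver, kidney or infiltrating cells could not be looked up, and no sequence is shown. In whole tissue, more cells of a type and more RNA per cell cannot be told apart. In 8 members the vehicle level was at least 16 times higher in liver than in kidney. The tissue labels themselves picked these members, so the values that follow do not check the labels. The summed level of these 8 members was 4656 to 14364 CPM in the 32 livers, against 7.67 to 114 CPM in the 32 kidneys.

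Across the 89 members, the ratio of acetaminophen over vehicle livers at 10 h had a median of 1.97 and a range of 1.75 to 7.80. A ratio of at least 2 was reached by 41 members, at least 3 by 13 and at least 5 by 4, so 48 members lay between the threshold and 2. The set is therefore mostly one of modest differences with a short tail of larger ones. For comparison, 12213 transcripts had a median of at least 1 CPM in acetaminophen livers at 10 h, with a median ratio of 1.03, and 324 of them had a ratio of at least 1.75. All 8 acetaminophen livers at 10 h lay above the vehicle median for 74 members, and 7 of 8 did for the other 15.

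**Figure D1:**
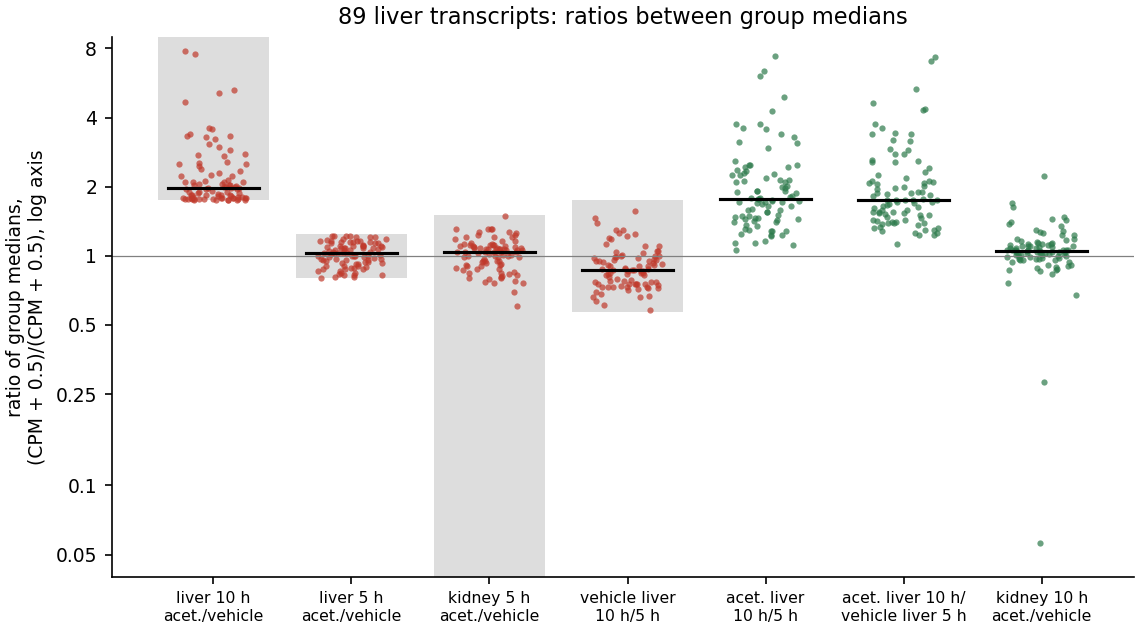
Ratios between group medians, (CPM + 0.5)/(CPM + 0.5) on a log axis, for the 89 members, 1 point each, with the median as a line (acet. is acetaminophen). Grey boxes mark the windows the rule set for the 4 ratios in red, and the 3 ratios in green had no window of their own. The 2 liver ratios in green still follow from ratios in red. Their medians are 1.77 for acetaminophen livers at 10 h over 5 h and 1.75 for acetaminophen livers at 10 h over vehicle livers at 5 h. The ratio for the kidney at 10 h, with a median of 1.05, does not follow from them.

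Many members sat close to a threshold. The members just inside the 10 h threshold had ratios of 1.753, 1.754 and 1.754, and the nearest transcripts that failed only this criterion had 1.746, 1.745 and 1.726. The 5 h liver window alone kept out 126 transcripts, the nearest with ratios of 0.796 and 1.251, while members ran from 0.801 to 1.226. The kidney criterion alone kept out 3 transcripts, the nearest at 1.549, and the highest member was at 1.488. The vehicle time criterion alone kept out 8, the nearest at 0.519 and 2.539, against 0.582 to 1.573 in members. The minimum level alone kept out 2 and the number of libraries above the vehicle median alone kept out 8.

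The name "raised at 10 h only" was set beside ratios to the liver groups of 5 h. These ratios are no check of it, because they follow from ratios the rule limited. The ratio over vehicle livers at 5 h is the 10 h liver ratio times the vehicle time ratio. The ratio over acetaminophen livers at 5 h is that product divided by the 5 h liver ratio. Acetaminophen livers at 10 h over acetaminophen livers at 5 h gave a median ratio of 1.77, with a range of 1.06 to 7.44, and 47 of the 89 members reached 1.75. Acetaminophen livers at 10 h over vehicle livers at 5 h gave a median of 1.75, with a range of 1.13 to 7.35, and 45 members reached 1.75. Both ratios were at least 1.75 in 40 members and neither was in 37. For those 37 members, the vehicle livers at 10 h had a lower median than either group of livers at 5 h, so the word "only" holds for them against vehicle livers of the same time and not against both 5 h groups. The vehicle ratio of 10 h over 5 h was below 1 in 70 of 89 members (78.7%), with a median of 0.868, against 7575 of the 12213 transcripts, with a median of 0.953; this ratio shares the vehicle livers at 10 h with the ratio that chose the members.

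In edgeR's quasi-likelihood fit over all 14943 transcripts tested in liver, 9.74% of transcripts were called higher in acetaminophen than in vehicle livers at 10 h, and 77 of the 89 members were among them, with 12 not called. For the difference of the acetaminophen effect, 10 h minus 5 h, 3.77% were called higher, and 43 of the 89 members were. That count was 66 by limma on log2(TPM + 1), where 12.1% of all transcripts were called, 35 with no filter on low counts (2.01%) and 34 without the libraries numbered 65 to 67 (2.69%). Both contrasts were used to choose the members, so nothing is read from these counts. The difference contrast asks whether the 10 h effect exceeded the 5 h effect. It does not ask whether an effect at 5 h was absent, so it is no test of the label "only". The fitted log2 difference was below 0 for the members of rank 2 (-2.54, SE 1.96) and rank 12 (-0.08, SE 0.56), neither of them called. The members' log2 change at 10 h had a median of 1.06 and ran from 0.63 to 4.56. The groups did not overlap, with all 8 acetaminophen livers above all 8 vehicle livers at 10 h, for 38 members, against 2.28% of all transcripts tested. The 8 acetaminophen livers at 10 h lay above all 24 other livers for 13 members, against 0.214%. The rule chose the members on these same libraries, so nothing is read from these 2 comparisons either.

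**Figure D2:**
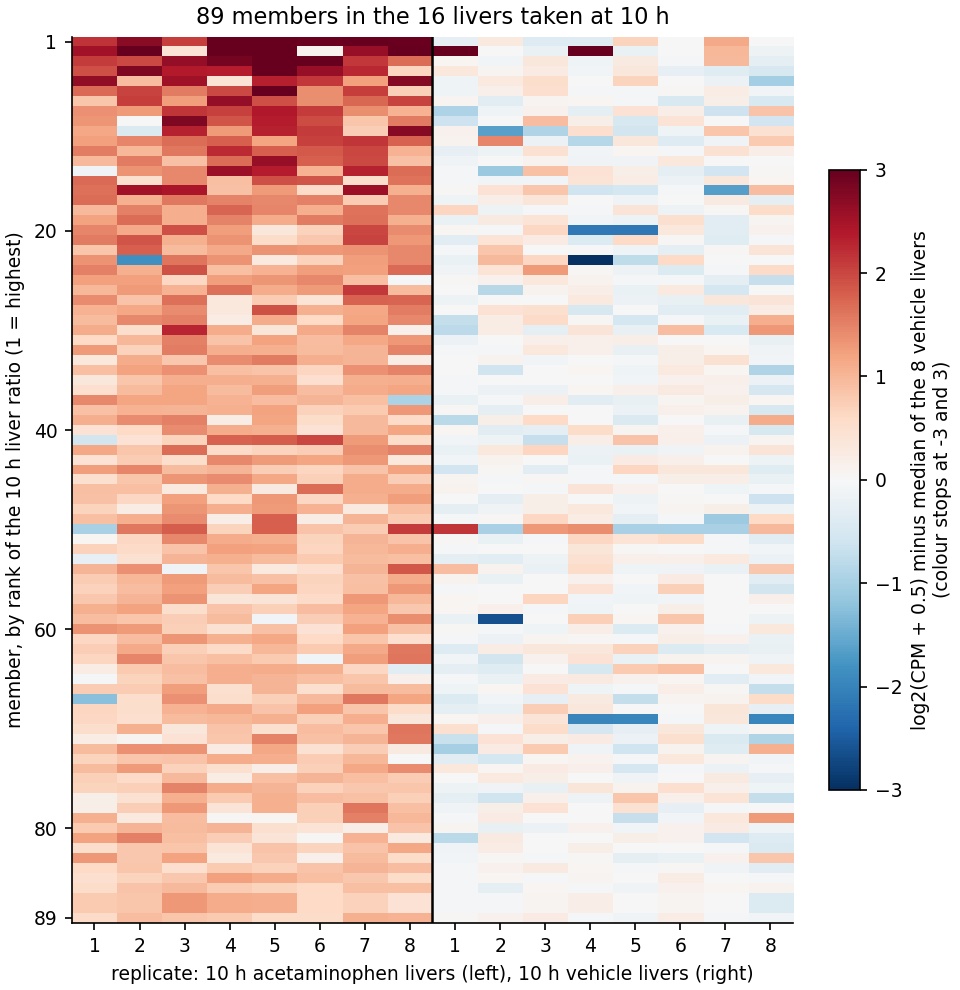
The 89 members (rows, sorted by the 10 h liver ratio, highest at the top) in the 8 acetaminophen (left) and 8 vehicle (right) livers taken at 10 h; colour is log2(CPM + 0.5) minus the median of the 8 vehicle livers, and stops at -3 and 3. The left side is red for most members in every library, and pale or blue cells there show members near or below the vehicle median in that library.

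The higher level was present in each of the 8 acetaminophen livers at 10 h. Over the 89 members, the median of log2(CPM + 0.5) minus the vehicle median was lowest in acetaminophen replicate 6 at 0.81, had a median of 1.06 and was highest in replicate 3 at 1.23, against -0.09 to 0.10 in the 8 vehicle livers at 10 h. No acetaminophen liver at 10 h came near the vehicle range, and each had 83 to 89 of the 89 members above the vehicle median. Replicate 3 was the highest library for 21 members, while replicates 1, 8 and 4 were the lowest for 19, 17 and 16. At 5 h the same median ran from -0.17 to 0.13 in acetaminophen livers.

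Members did not rank the 8 acetaminophen livers at 10 h in 1 common order. Over the 3916 pairs of members, Pearson's r across these 8 livers had a median of 0.08 with quartiles of -0.23 and 0.40. Over the 12213 transcripts the median was 0.10, with quartiles of -0.28 and 0.46. These values are descriptions, since all pairs share the same 8 libraries and their depth.

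**Figure D3:**
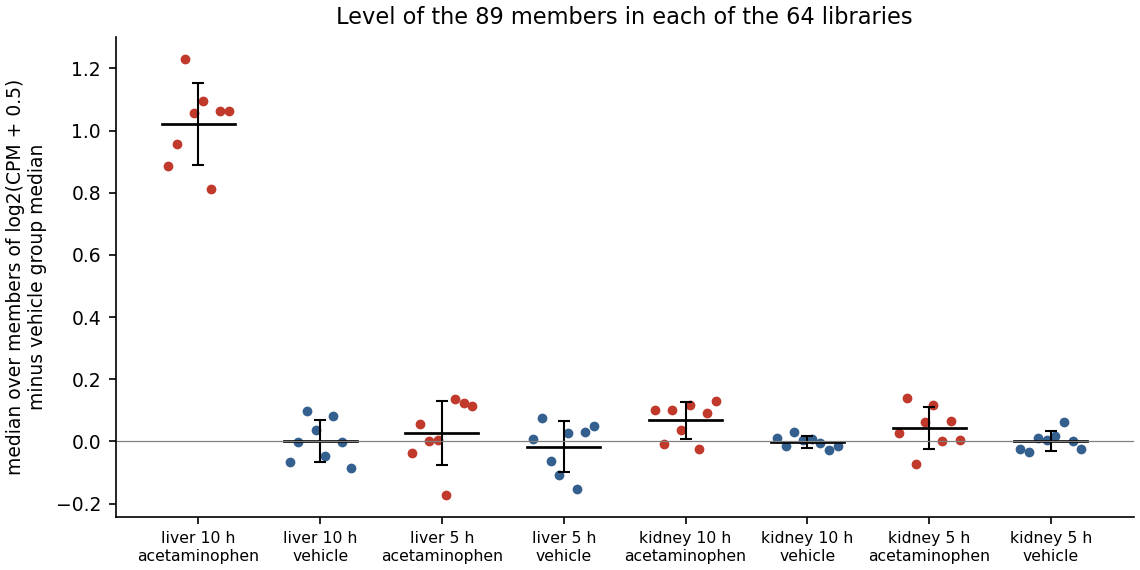
Median over the 89 members of log2(CPM + 0.5) minus the vehicle median of the same tissue and time, 1 point per library, with the mean (line) and SD (bar) of each group of 8; acetaminophen is red and vehicle blue. The 8 acetaminophen livers at 10 h lie between 0.81 and 1.23, and every other group lies between -0.17 and 0.14.

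The members spanned a wide range of levels. In acetaminophen livers at 10 h the median CPM of a member ran from 1.13 to 6178 with a median of 14.7; 15 members had at least 100 CPM, 37 had 10 to 100 and 37 had less than 10. The most abundant member held 41.4% of the members' summed median CPM and the 5 most abundant 71.8%. Together the members took 1.12% to 1.82% of the estimated counts of an acetaminophen liver at 10 h, against 0.651% to 1.23% of a vehicle liver at 10 h. Per length the order differs: by TPM (abundance scaled to transcript length and to the same total) a member of 284 bases was highest, with a median of 9841 TPM in acetaminophen and 4291 TPM in vehicle livers at 10 h, and the lowest member had a median of 0.316 TPM in acetaminophen livers.

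The member with the highest 10 h ratio, 7.80, was ENSRNOT00000065292, of 1928 bases. It had 2.69 CPM in the lowest, a median of 5.37 CPM and 12.1 CPM in the highest acetaminophen liver at 10 h, against 0.08, 0.25 and 1.15 CPM in vehicle livers. The groups did not overlap, and all 8 acetaminophen livers at 10 h also lay above all 16 livers taken at 5 h. At 5 h it had a median of 0.46 CPM in acetaminophen livers, of which 2 were at 0 and the highest at 2.62 CPM, and a median of 0.33 CPM in vehicle livers. In kidney its medians were 0.19 to 0.37 CPM in all 4 groups, under the filter on low counts, so it was not tested there. By group means in place of medians its 10 h ratio was 7.11.

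ENSRNOT00000009813, of 1612 bases, was the most abundant member by CPM and the second by TPM, with 3789 TPM in acetaminophen and 2079 TPM in vehicle livers at 10 h. It had 3928 CPM in the lowest, a median of 6178 CPM and 8641 CPM in the highest acetaminophen liver at 10 h, against 2905, 3510 and 6280 CPM in vehicle livers. The groups overlap, because vehicle replicate 8, at 6280 CPM, lay above 5 of the 8 acetaminophen livers; the other 7 vehicle livers lay at or below 3850 CPM. At 5 h it had a median of 3885 CPM in acetaminophen and 4430 CPM in vehicle livers, and 5 of the 8 acetaminophen livers at 10 h lay above the highest of these vehicle livers. Its 10 h ratio was 1.76, 1.79 without vehicle replicate 8, and 1.64 by group means, which is below the threshold.

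ENSRNOT00000026355, of 1500 bases, was another of the 8 members found chiefly in liver. It had 650 CPM in the lowest, a median of 801 CPM and 993 CPM in the highest acetaminophen liver at 10 h, against 251, 311 and 434 CPM in vehicle livers, and the groups did not overlap. At 5 h it had 99.3, 343 and 477 CPM in acetaminophen livers, against 111, 356 and 728 CPM in vehicle livers, so that 4 of the 8 acetaminophen livers at 10 h lay above every vehicle liver at 5 h. Its 10 h ratio was 2.57.

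**Figure D4:**
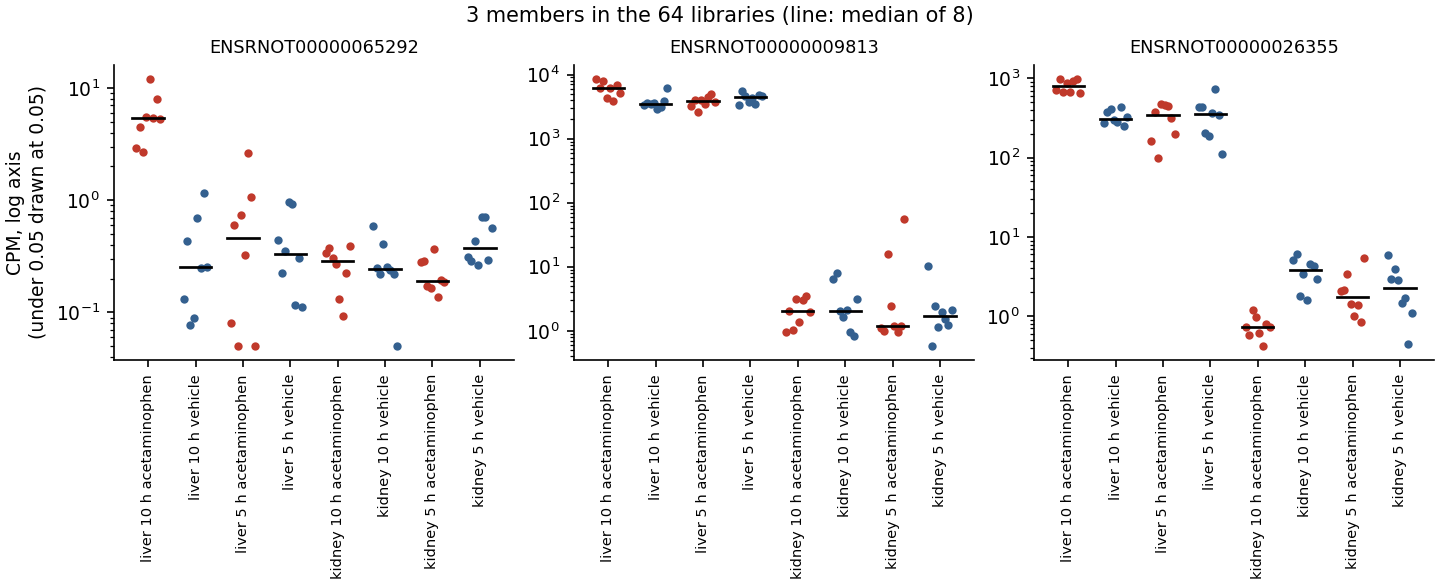
CPM of 3 members in the 64 libraries on a log axis, 1 point per library, with the median of 8 as a line; acetaminophen is red and vehicle blue, and values under 0.05 are drawn at 0.05. In liver at 10 h the acetaminophen medians are 5.37, 6178 and 801 CPM, and in kidney at 10 h the third member has medians of 0.72 CPM in acetaminophen and 3.84 CPM in vehicle libraries.

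The next members by 10 h ratio show how unlike the values behind similar ratios can be. The member of rank 2, of 10178 bases, had 0.12, 3.86 and 56.4 CPM (lowest, median, highest) in acetaminophen livers at 10 h, against 0.00, 0.07 and 18.8 CPM in vehicle livers, with widely overlapping groups and no call. At 5 h its medians were both 0.09 CPM, but its means were 11.4 CPM in acetaminophen and 0.67 CPM in vehicle livers. By means it was thus not near the vehicle level at 5 h. The member of rank 3, of 1415 bases, had 15.8, 26.2 and 48.9 CPM in acetaminophen livers, against 3.63, 4.55 and 9.34 CPM in vehicle livers, with no overlap. The member of rank 4, of 773 bases, had 1.44, 5.88 and 12.1 CPM in acetaminophen livers, against 0.38, 0.74 and 1.06 CPM in vehicle livers, also with no overlap. The libraries within a group thus differed far more at rank 2, where the counts are not whole numbers, than at ranks 3 and 4, where they are. At rank 6 the counts are not whole either, yet the groups did not overlap at 10 h, so no link to whole counts is read from these members. The member of rank 5, of 627 bases, had 1.85, 7.89 and 11.6 CPM in acetaminophen livers, against 0.38, 1.29 and 2.33 CPM in vehicle livers, and its groups overlap.

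The members were grouped by where they are found in vehicle rats, on the vehicle liver over vehicle kidney ratio of median CPM. Both times were pooled and 0.01 was added to each median. The rule set no such ratio, though its own ratios used CPM of vehicle livers and of vehicle kidneys at 5 h. At least 16 times more in liver than in kidney were 8 members (8.99%), against 3.68% of the 12213 transcripts with at least 1 CPM, and 2 to 16 times more were 6 (6.74%), against 5.63%. The largest class, 40 members (44.9%), was within 2 times in both tissues, as were 5133 of the 12213 transcripts. Between 2 and 16 times more in kidney were 29 members (32.6%), against 5618 of the 12213 transcripts, and at least 16 times more in kidney were 6 (6.74%), against 2.66%. The median 10 h liver ratio was 2.13, 2.12, 1.88, 2.04 and 2.98 in these 5 classes, in the same order. The 6 members of the last class were scarce in liver, with a median of 2.40 CPM in acetaminophen livers at 10 h.

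One of those 6 had the largest fitted log2 change of all members, 4.56. It had 0.49, 1.15 and 2.80 CPM (lowest, median, highest) in acetaminophen livers at 10 h, against 0.00, 0.04 and 0.17 CPM in vehicle livers, of which 3 were at 0. The groups did not overlap, and the size of such a fold rests on very few vehicle reads. In kidney at 10 h the same member had medians of 1.76 CPM in acetaminophen and 1.06 CPM in vehicle rats, levels like those of the acetaminophen livers.

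The 8 members found chiefly in liver followed another order of animals than the other 81. Their median log2 difference from vehicle at 10 h was 0.27 in acetaminophen replicate 4 and 0.58 in replicate 6, against 1.03 to 1.43 in the other 6 acetaminophen livers. In vehicle replicate 8 it was 0.95, against -0.35 to 0.23 in the other 7 vehicle livers. In acetaminophen replicate 4 the median of the other 81 members was 1.07, and in vehicle replicate 8 it was -0.11. Vehicle replicate 8 thus had the highest summed level of members among the vehicle livers at 10 h, 12319 CPM against at most 8690 CPM in the others, and was at the same time the lowest of the 8 vehicle livers for 28 single members. The part of this library in the members' ratios was measured by leaving it out, as given for ENSRNOT00000009813.

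Length and the assignment of reads were also compared. The members' lengths had a median of 1861 bases (204 to 10178), against 2045 for the 12213 transcripts. kallisto divides reads that fit several transcripts, and such transcripts carry estimated counts that are not whole numbers. In 53 of the 89 members (59.6%) the counts were whole in every library, against 58.2% of the 12213 transcripts. Of the 53, 30 had no overlap between the groups at 10 h, and of the other 36, 8 had none. Over all transcripts tested in liver the share was 2.28%. That share was not split by whole counts, so nothing is read from the difference between these counts. A pair of members of the same length, 6684 bases, had identical counts in every library and so counts as 2 of the 89.

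The kidney at 10 h is the one place where acetaminophen and vehicle can be compared with libraries the rule did not use. Of the 89 members 84 passed the filter on low counts there; the 5 others were too scarce to be tested. In edgeR's quasi-likelihood test, adjusted by the Benjamini-Hochberg method over 17284 transcripts, 1 member was higher in acetaminophen kidneys, where 0.694% of all transcripts were called higher, and 1 was lower, where 0.648% were called lower. In this fit both counts are close to the background. DESeq2 called 4 members higher, where it called 1.2% of all transcripts, and limma voom 6, where it called 3.02%. edgeR called 3 members higher in a fit of only the groups compared (1.27% of all transcripts) and 2 when libraries 44 and 56 were left out (1.35%). The count was also 2 without acetaminophen replicate 2 (0.828% of all transcripts), acetaminophen replicate 6 (0.861%) or vehicle replicate 4 (0.604%). In each of these fits 1 member was called lower. The log2 change of the 84 members had a median of 0.05, with a range of -2.29 to 0.81 and a median SE of 0.13, against a median of -0.0017 over all transcripts tested. It was positive for 57 of the 84 (67.9%), against 49.6% of all, and 16 members had an unadjusted p under 0.05, against 13.2% of all; of the 16, 13 were higher, against 6.64% of all.

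**Figure D5:**
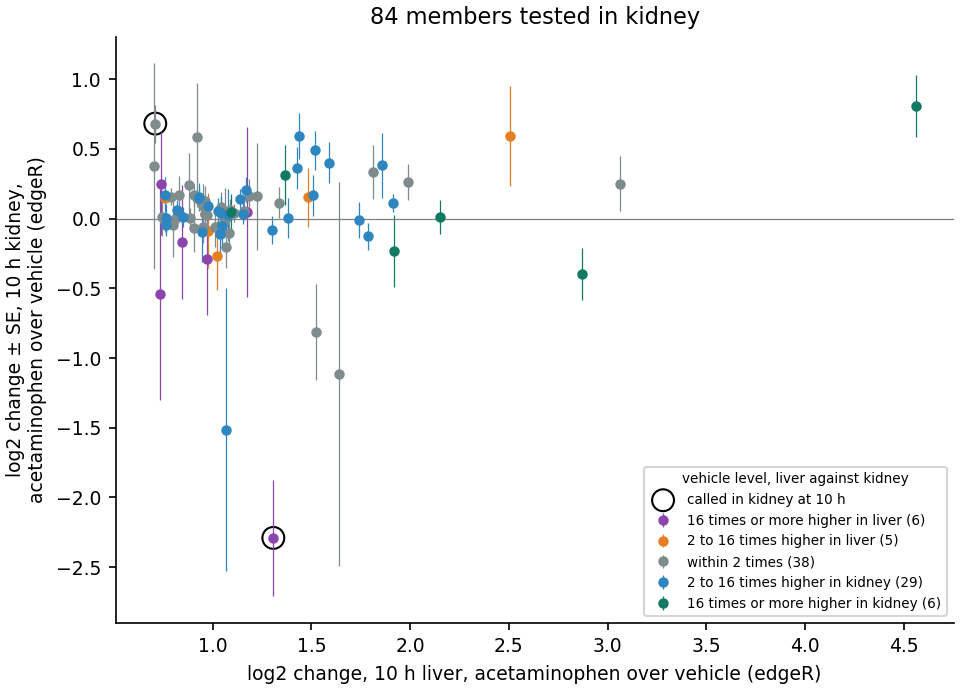
Log2 change (acetaminophen over vehicle, edgeR) of the 84 members tested in kidney at 10 h, with SE bars, against their log2 change in liver at 10 h; colours give the class by vehicle level in liver against kidney, and rings the 2 members called in kidney. Most members lie near 0 in kidney, with 10 beyond 0.5 in either direction, while the liver values, which chose the members, all lie above 0.6.

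The member called lower was ENSRNOT00000026355, described above for its higher level in liver. It had 0.42, 0.72 and 1.19 CPM (lowest, median, highest) in acetaminophen kidneys at 10 h, against 1.58, 3.84 and 6.03 CPM in vehicle kidneys. The 2 groups did not overlap, on estimated counts of 9 to 31 in acetaminophen and 31 to 130 in vehicle kidneys. The fitted log2 change was -2.29, with an SE of 0.42 and an edgeR adjusted p of 0.0038. At 5 h it had 0.83, 1.73 and 5.40 CPM in acetaminophen kidneys, against 0.44, 2.26 and 5.85 CPM in vehicle kidneys, which overlap almost fully. All 8 acetaminophen kidneys at 10 h were thus below vehicle while all 8 acetaminophen livers at 10 h were above it.

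Since this transcript is 115 times more abundant by CPM in vehicle liver than in vehicle kidney, its kidney reads were set beside those of the other members found chiefly in liver. The other 7 members of that class summed to 6.94 to 15.5 CPM in acetaminophen kidneys at 10 h, against 7.47 to 23.8 CPM in vehicle kidneys, and the ranges overlap. The ratio of ENSRNOT00000026355 to ENSRNOT00000009813 was 0.138, 0.338 and 1.15 (lowest, median, highest) in acetaminophen kidneys, against 0.744, 0.912 and 5.16 in vehicle kidneys. In livers at 10 h the same ratio was 0.083 to 0.234 with acetaminophen and 0.052 to 0.141 with vehicle. ENSRNOT00000009813 itself had medians of 2.01 CPM in acetaminophen and 2.05 CPM in vehicle kidneys at 10 h, which are nearly equal. The change that edgeR fitted was -0.54 on the log2 scale and missed the threshold (adjusted p = 0.853), and without vehicle replicate 2 it was -0.18. The part of liver RNA in kidney libraries was not tested.

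The member called higher in kidney has 1990 bases and is found at like levels in both tissues. It had 58.4, 71.0 and 77.4 CPM (lowest, median, highest) in acetaminophen kidneys at 10 h, against 26.9, 43.5 and 58.5 CPM in vehicle kidneys. The ranges barely overlap, with the lowest acetaminophen kidney just under the highest vehicle one. The fitted log2 change was 0.68, with an SE of 0.14 and an edgeR adjusted p of 0.00848. In liver at 10 h it had 45.9, 93.8 and 181 CPM with acetaminophen, against 42.4, 49.3 and 93.4 CPM with vehicle, with wide overlap, and it was 1 of the 12 members not called there. Its counts are not whole numbers, so part of its reads also fit other transcripts.

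Among the 10 members beyond 0.5 in kidney, the other 8 did not pass the test. The second most negative, of 2886 bases, changed by -1.51 on the log2 scale, with an SE of 1.02 and an edgeR adjusted p of 0.583, and its counts are not whole. The most positive log2 change, 0.81, was that of the scarce kidney transcript described above.

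Between vehicle kidneys, 10 h against 5 h, none of the 84 members was called by edgeR's quasi-likelihood test, which called 0.0405% of all transcripts. An unadjusted p under 0.05 was found for 7 members, against 5.8% of all transcripts. DESeq2 called 0 members and 0.226% of all, and limma voom with library weights called 1 member and 0.37% of all. The members' median log2 change was -0.07, against -0.01 over all transcripts. The vehicle kidneys at 5 h are also the ones the rule used in its kidney ratio, so this comparison shares libraries with the choice of members.

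The membership itself depends on how the ratios are computed. Under 23 other settings, 19 of the 89 members met the rule every time, and 14 of these 19 had a 10 h ratio of at least 2. ENSRNOT00000026355 met it in 23 of the 23 settings, ENSRNOT00000065292 in 21 and ENSRNOT00000009813 in 17. Leaving out each of the 16 livers of 10 h in turn kept 59 members throughout. With group means in place of medians 84 transcripts met the rule, of which 55 were among the 89, and with TPM in place of CPM 92 did, of which 60 were.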

How the data were processed

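The authors deposited 1 kallisto table per library, holding transcript length, estimated counts and TPM for each of 28420 transcripts made with kallisto 0.42.4 on Rnor 6.0 per the submitters' processing notes. The estimated counts are reads assigned to a transcript and the TPM are scaled to length and depth, per the file headers. Per the labels' protocols, the libraries were stranded, made from poly-A RNA and read from a single end; they describe RNA from cultured cells, although the samples are labelled as liver or kidney. The labels for agent, tissue and time gave the groups.

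CPM are estimated counts over the library's sum. For tests, estimated counts were rounded to integers and fitted per tissue over all 4 groups with edgeR 4.0.16 in R 4.3.3 (filterByExpr, TMM, glmQLFit, glmQLFTest, two-sided), and calls have an adjusted p (Benjamini-Hochberg) under 0.05. The edgeR test of acetaminophen against vehicle in kidney at 10 h was also run on simulated counts with known changes. The other steps were not. A count was taken as whole within 1e-06.

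The members and lists were chosen with earlier results of these data known. The transcripts named are, by rule, the member with the highest 10 h liver ratio, the one with the highest CPM and up to 2 called lower in kidney at 10 h; the others described singly were picked after their values were seen. Gene lists and cell type markers could not be used, because 0 of the 28420 identifiers are paired with a symbol. Alternatives were DESeq2 1.42.0, edgeR with DESeq2 size factors, no filter, limma 3.58.1 on log2(TPM + 1), log2(TPM + 0.1) and voom with library weights, only the groups compared, and leaving out libraries.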

Additional observations from a re-analysis of the deposited data

Results flagged for a closer look

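Of 32 groups of 8 libraries checked for a single library far from the others, 5 were marked. Chance marks about 1 in 20 groups when values are normally distributed, which was not tested for these CPM. The checks are not independent, because the summed level includes ENSRNOT00000009813, so nothing is read from the number marked. The summed level of the members in vehicle livers at 10 h was 12319 CPM in the highest library, replicate 8, and 8690 CPM in the next. ENSRNOT00000009813 had 6280 CPM in the same library and 3850 CPM in the next vehicle liver. The same transcript had 55.5 CPM in 1 acetaminophen kidney at 5 h, against 15.6 CPM in the next, and 10.1 CPM in 1 vehicle kidney at 5 h, against 2.42 CPM in the next. ENSRNOT00000065292 had 2.62 CPM in 1 acetaminophen liver at 5 h, against 1.06 CPM in the next.

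ENSRNOT00000026355 moved in opposite directions in the 2 tissues at 10 h: every acetaminophen liver lay above every vehicle liver, and every acetaminophen kidney below every vehicle kidney, with a kidney log2 change of -2.29. The difference between the tissues was not tested, because the liver comparison chose the transcript.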

How the results depend on the processing

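The number of transcripts that meet the rule was 89, and 73 to 101 over 23 other settings; it was 81 to 101 without 1 liver of 10 h, 73 (52 of them members) without the liver libraries numbered 28, 29, 30 and 32, and 93 (75 members) without those numbered 65 to 68. The 1 member called lower in kidney at 10 h was called under all 25 alternatives (adjusted p from 2.33e-05 to 0.011, log2 change from -2.42 to -2.16 without 1 library and -1.24 on log2(TPM + 1), a scale that understates changes of low transcripts). The members called higher numbered 1 in the edgeR fit, with 0.694% of all transcripts, against 6 by limma voom (3.02% of all), 4 by DESeq2 (1.2%), 3 in a fit of only the groups compared (1.27%), 2 without the kidney libraries numbered 44 and 56 (1.35%), and 1 to 2 without 1 library (2 without acetaminophen replicate 2, acetaminophen replicate 6 or vehicle replicate 4); the member described kept an adjusted p of 0.000274 to 0.0213. Between vehicle kidneys limma voom called 1 member (0.37% of all), against 0 otherwise, also without any 1 library. The difference of the liver effect, 10 h minus 5 h, was called for 43 members, with 3.77% of all transcripts, against 66 by limma on log2(TPM + 1), where 12.1% of all were called and the median of all transcripts was 0.13, 35 with no filter (2.01%) and 34 without the libraries numbered 65 to 67 (2.69%). The cause of these differences was not tested. No paired analysis was possible because the labels give no shared replicate numbers or animals. Members near 1 CPM rest on few reads, and the division of reads between related transcripts carries an error that these files do not measure.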
